A study of Brassica rapa subsp. pekinensis with 6 samples.

Results

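A set of 10 genes of Chinese cabbage (Brassica rapa subsp. pekinensis) was followed in developing flower buds: the copies of the transcription factors MYB28, MYB34 and MYB51, which switch on the making of glucosinolates. They were chosen by gene identifier with no rule on their values, but with earlier results of these data known. They are 10 of the 35421 genes with a read. MYB28 has 3 copies (Bra035929, Bra029311 and Bra012961), MYB34 has 4 (Bra035954, Bra029349, Bra013000 and Bra029350) and MYB51 has 3 (Bra016553, Bra025666 and Bra031035). All 10 had a read in at least 1 library. The copy names came with the list of identifiers. The deposited tables carry no gene names, and none of the 10 identifiers matched the RefSeq gene table used here, so the names were not checked against sequence.

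Buds were taken at full bloom from the wild type, the line FT, and from the male sterile mutant msm. Each group held 3 libraries, numbered 1, 2 and 4 in wild type and 1, 2 and 3 in msm. The libraries held 25156752 ± 216956 (wild type) and 25534727 ± 600111 (msm) uniquely assigned reads (n = 3 each, SD), and the deepest of the 6 had 1.05 times the reads of the shallowest. The labels name no treatment, transgene or plant number, and they do not say whether libraries came from separate plants, so each p-value rests on a spread that could be technical. The tissue could not be checked against marker genes, because the identifiers carry no names. In whole buds, fewer cells of a type and less RNA per cell cannot be told apart.

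Glucosinolates are sulfur-containing defence compounds of cabbages and their relatives, made from amino acids and broken down into pungent products when tissue is damaged. In Arabidopsis, MYB28 is a main activator of the aliphatic branch, which starts from methionine, whereas MYB34 and MYB51 activate the indolic branch, which starts from tryptophan. There MYB34 acts mainly in roots and MYB51 mainly in shoots. Brassica rapa carries several copies of many genes that are single in Arabidopsis, after a triplication of its ancestral genome. Reads of such copies can be lost or placed on the wrong copy where the sequences are alike. The deposited counts are of uniquely assigned reads, but the rule for calling a read unique is not given in the sources used here.

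MYB28 copies held nearly all of the reads, and the indolic regulators were weakly expressed. Over the 3 MYB28 copies the summed level was 30.2 ± 2.63 RPKM in wild type and 39.1 ± 2.40 RPKM in msm (n = 3 each, SD). RPKM is the number of reads scaled to the coding length of the gene and to the total of the library. The 4 MYB34 copies summed to 1.82 ± 0.175 RPKM in wild type and 3.24 ± 1.04 RPKM in msm (n = 3 each, SD). The 3 MYB51 copies summed to 0.263 ± 0.177 and 0.797 ± 0.193 RPKM (n = 3 each, SD). Among all genes with a read, ranked by mean RPKM over the 6 libraries, Bra035929 stood at percentile 71.8 and Bra029311 at 61.0, whereas the remaining 8 copies lay between percentiles 1.70 and 34.3.

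**Figure D1:**
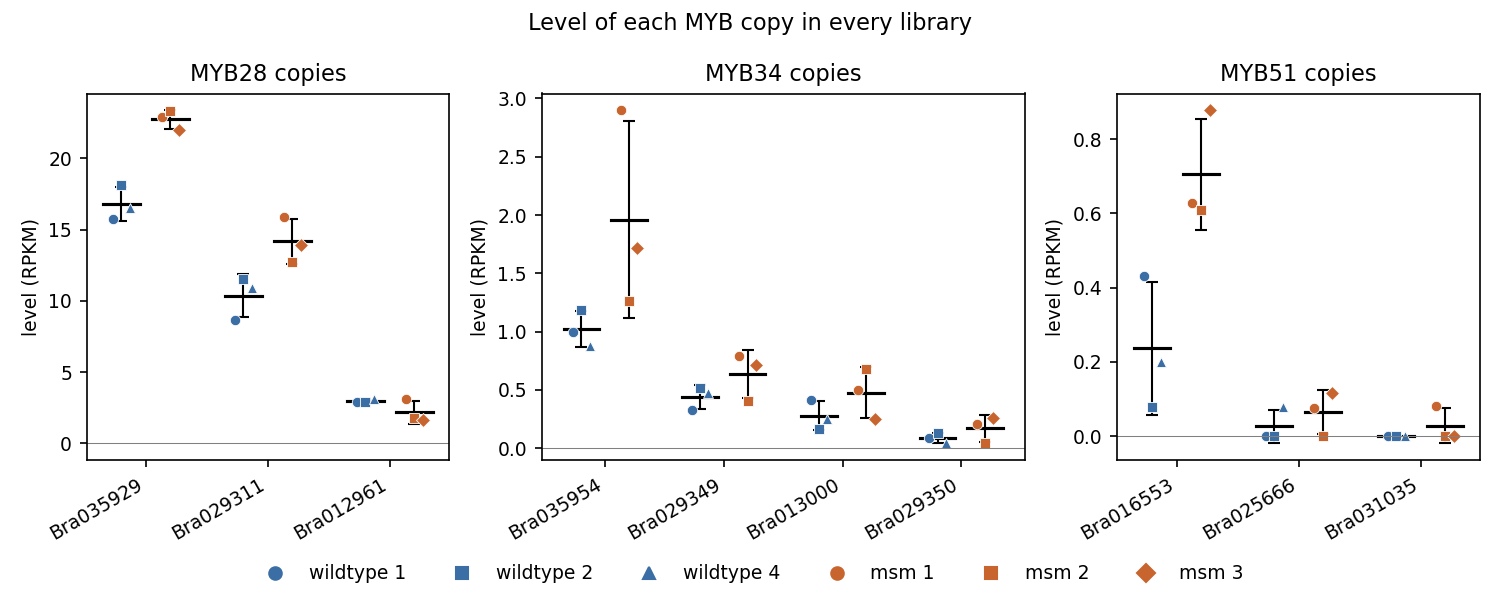
Level of each copy in RPKM (linear axes that differ between panels) in the 3 wild-type and 3 msm libraries. Symbols are libraries, the thick line is the group mean and the bar is 1 SD; Bra035929 reached 22.0 to 23.3 RPKM in msm and 15.8 to 18.1 in wild type, and no MYB34 or MYB51 copy passed 2.90 RPKM.

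Buds of sterile and fertile plants were compared to see which of these regulators differed. Of the 6 copies with enough reads to be tested, 3 rose (Bra035929, Bra035954 and Bra016553) and 1 fell (Bra012961) at the threshold of 0.05 for the adjusted p (quasi-likelihood test of edgeR, adjusted over all 29104 genes tested). In this comparison 26.8% of all tested genes were higher and 30.1% lower in msm at the same threshold. That balance turns with scaling: 45.7% were higher and 19.9% lower under total counts, and 35% and 24.7% under upper-quartile scaling. With a change of at least 2-fold required as well, 1 copy was higher (Bra016553) and none was lower, against 4.64% and 12.5% of all tested genes. At an unadjusted p below 0.05, no further copy was lower and Bra029311 was also higher. The share of all tested genes was not counted at that looser threshold, so the added copy has no background to be read against. DESeq2 called 1 copy lower and none higher, against 24.1% and 19.2% of the 35421 genes with a read. On the TMM scale all 3 msm libraries lay above all 3 wild-type libraries for 2 of the tested copies (Bra035929 and Bra016553) and below them for 1 (Bra012961), as they did for 29.3% and 32.4% of all tested genes. These shares are high, so a call or a lack of overlap does not set the copies apart from other genes. The median log2 fold change of the 6 tested copies was 0.27, against 0.005 over all tested genes. The quartiles of all tested genes were -0.36 and 0.31, so the median of the copies lay between them. Those quartiles are of single genes and a median of 6 spreads less, so this does not show whether that median is unusual. The filter on low counts removed 4 copies, so these figures describe only the copies with more reads. Bra016553 had 11, 2 and 5 reads in wild type and 16, 16 and 22 in msm. It met that filter through the msm libraries, where it is high, so its call is not independent of the filter. In an edgeR fit of every gene with a read its adjusted p was 0.026.

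Fold changes were fitted with TMM scaling, which assumes that most genes do not change. In that fit, however, 26.8% of tested genes were higher and 30.1% lower at an adjusted p below 0.05 in edgeR. The wild-type libraries had factors of 0.925 to 0.929 and the msm libraries of 1.07 to 1.08. RPKM has no such factor. When only total counts were used, the median log2 fold change of all tested genes was 0.22, so a ratio of RPKM values is higher than the fitted fold.

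Bra035929 was the most strongly expressed MYB28 copy. It had 430, 488 and 444 reads in wild type 1, 2 and 4, and 625, 655 and 591 reads in msm 1, 2 and 3. In RPKM these were 15.8, 18.1 and 16.5 in wild type and 22.9, 23.3 and 22.0 in msm. Every msm library lay above every wild-type library, on both the RPKM and the TMM scale. The fitted rise was 1.16-fold, a log2 fold change of 0.22 ± 0.083 (SE) with an adjusted p of 0.026 in edgeR. The ratio of mean RPKM was 1.35, and with total counts the log2 fold change was 0.44. The call was lost in DESeq2 (adjusted p = 0.0643) and in edgeR without wild type 1 (adjusted p = 0.133), without wild type 4 (0.0823) or without msm 2 (0.0621).

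Bra029311, the MYB28 copy next in level, gave 246, 323 and 306 reads in wild type and 452, 374 and 390 in msm. Its RPKM values were 8.65, 11.5 and 10.9 in wild type and 15.9, 12.8 and 13.9 in msm. The groups stood apart in RPKM but overlapped on the TMM scale. Its fitted log2 fold change was 0.24 ± 0.11 (SE), near that of Bra035929, at an adjusted p of 0.0639 in edgeR. It passed the threshold under total counts (log2 fold change 0.45, adjusted p = 0.000613) and upper-quartile scaling (0.33, adjusted p = 0.00933), and in edgeR without wild type 2 (adjusted p = 0.0398) or without msm 2 (0.0222).

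Bra012961, the weakest MYB28 copy, was the only one of the 6 tested copies with a lower fitted level in msm. It had 79, 78 and 83 reads in wild type and 84, 50 and 44 in msm. As RPKM these were 2.92, 2.92 and 3.12 in wild type and 3.10, 1.79 and 1.65 in msm. The wild-type libraries were close together, msm 2 and msm 3 lay below them, and msm 1 lay within their range in RPKM and below it on the TMM scale. The fitted log2 fold change was -0.67 ± 0.21 (SE), a level 1.59-fold lower in msm, with an adjusted p of 0.00852 in edgeR. Without msm 1 it was -1.004 (adjusted p = 0.000118), and without msm 3 it was -0.50 and no longer passed the threshold (adjusted p = 0.0692). The call was also lost with total counts (log2 fold change -0.45, adjusted p = 0.0641) and in limma on log2(RPKM + 1) and log2(RPKM + 0.1), at adjusted p of 0.07 and 0.08.

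Within the MYB28 family, the share of Bra012961 was smaller in msm and the shares of the remaining copies overlapped between the groups. A ratio of copies within a library does not depend on scaling. Bra012961 supplied 10.7%, 8.97% and 10.2% of the summed MYB28 RPKM in wild type 1, 2 and 4, and 7.41%, 4.74% and 4.39% in msm 1, 2 and 3. All msm shares were below all wild-type shares. The mean share was 9.95% ± 0.88 in wild type and 5.51% ± 1.65 in msm (n = 3 each, SD). Bra035929 supplied 55.8% ± 1.81 and 58.2% ± 3.45 (n = 3 each, SD), and Bra029311 34.3% ± 2.26 and 36.2% ± 2.22 (n = 3 each, SD).

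The same was seen in ratios of copies taken after adding 0.5 reads. Per length, Bra035929 exceeded Bra012961 by 2.48 ± 0.12 on the log2 scale in wild type and by 3.43 ± 0.48 in msm (n = 3 each, SD), a difference of 0.94. Bra029311 exceeded Bra012961 by 1.78 ± 0.21 and 2.74 ± 0.36 (n = 3 each, SD), a difference of 0.96. In both pairs the groups did not overlap, which gives an exact two-sided permutation p of 0.1, the smallest that 3 libraries against 3 allow. Over the 12 pairs of copies compared in the 3 families the adjusted value was 0.6 for each, so neither difference passed the threshold in this test. Bra035929 against Bra029311 gave 0.70 ± 0.14 in wild type and 0.68 ± 0.17 in msm (n = 3 each, SD; exact permutation p = 1), and the sign of that difference turned when wild type 1 or msm 1 was left out (0.059 and 0.058).

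**Figure D2:**
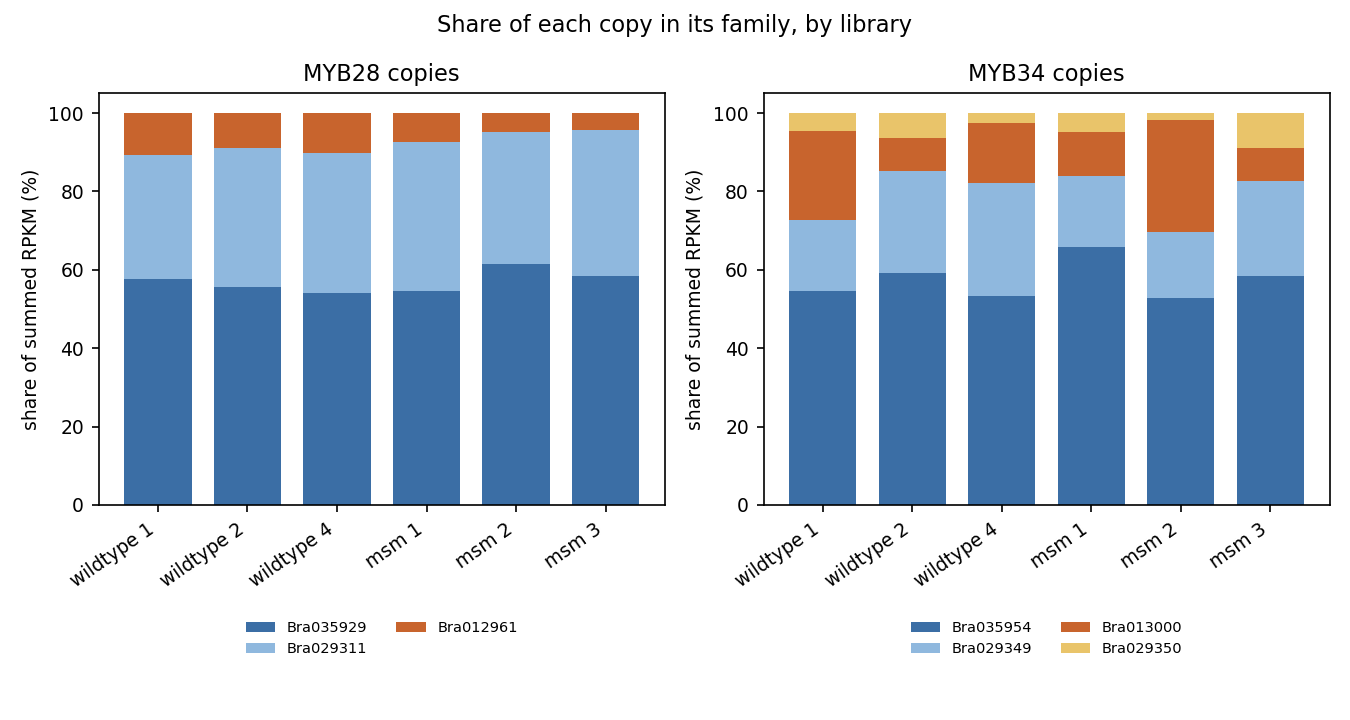
Share of each copy in the summed RPKM of its family (percent, stacked to 100) in each library, for MYB28 at left and MYB34 at right. The Bra012961 share of MYB28 lay between 8.97% and 10.7% for wild type and between 4.39% and 7.41% for msm, whereas the MYB34 shares overlapped between the groups.

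Bra035954 was the leading MYB34 copy. It had 23, 27 and 20 reads in wild type and 67, 30 and 39 reads in msm, or 0.996, 1.18 and 0.880 RPKM against 2.90, 1.26 and 1.72 RPKM. In RPKM every msm library was above every wild-type library, but msm 2 stood only just above wild type 2 and the groups overlapped on the TMM scale. The fitted log2 fold change was 0.72 ± 0.30 (SE), 1.65-fold, with an adjusted p of 0.0452 in edgeR. Library msm 1 decided much of it: without msm 1 the log2 fold change was 0.33 (adjusted p = 0.426). The call was kept in edgeR when msm 2 was left out (adjusted p = 0.0092) and was lost when any of the other 5 libraries was left out (adjusted p = 0.0528 to 0.426). DESeq2 did not call it either (adjusted p = 0.117).

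The other MYB34 copies were weakly expressed. Bra029349 gave 7, 11 and 10 reads in wild type and 17, 9 and 15 in msm, and the groups overlapped. Its log2 fold change was 0.31 ± 0.45 (SE), with a 95% interval from -0.61 to 1.23 and an adjusted p of 0.576 in edgeR. In folds of msm over wild type that interval runs from 0.657 to 2.34, so a change of this copy was not detectable at this depth. Bra013000 gave 10, 4 and 6 reads in wild type and 12, 17 and 6 in msm, again with overlap. Bra029350, numbered directly after Bra029349, gave 2, 3 and 1 reads in wild type and 5, 1 and 6 in msm. Both were removed by the filter on low counts. In an edgeR fit of every gene with a read their log2 fold changes were 0.55 ± 0.58 and 0.73 ± 0.99 (SE), with adjusted p of 0.456 and 0.568.

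Bra035954 supplied 55.7% ± 3.06 of the summed MYB34 RPKM in wild type and 59.0% ± 6.62 in msm (n = 3 each, SD). Bra029349 supplied 24.2% ± 5.62 and 19.8% ± 3.89, Bra013000 15.5% ± 7.17 and 16.1% ± 10.8, and Bra029350 4.56% ± 1.91 and 5.10% ± 3.54 (n = 3 each, SD). For each of these copies the shares overlapped between groups. The mean msm share of Bra013000 was 9.93% without msm 2, and that of Bra029350 was 3.26% without msm 3. The exact permutation p was 0.2 for the log2 ratio of Bra035954 to Bra029349, which was 1.18 ± 0.34 in wild type and 1.55 ± 0.30 in msm (n = 3 each, SD). That pair had the lowest p of the 6 MYB34 pairs.

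Bra016553 was the MYB51 copy with nearly all of the reads of that family, and it had the largest fitted change of the 6 tested copies. It gave 11, 2 and 5 reads in wild type and 16, 16 and 22 in msm. As RPKM these were 0.432, 0.0796 and 0.200 in wild type and 0.628, 0.610 and 0.878 in msm. The groups did not overlap, but the wild-type libraries were spread widely. Counting error alone gives the 2 reads of wild type 2 a 95% interval from 0.242 to 7.22 reads (exact Poisson), and the 11 reads of wild type 1 one from 5.49 to 19.7. The fitted log2 fold change was 1.33 ± 0.49 (SE), 2.52-fold with a 95% interval from 1.25-fold to 5.05-fold and an adjusted p of 0.0218 in edgeR. The call was lost in DESeq2 (adjusted p = 0.075) and in edgeR without wild type 2 (log2 fold change 0.92, adjusted p = 0.142), without wild type 4 (1.22, adjusted p = 0.0747) or without msm 3 (1.15, adjusted p = 0.102). Without wild type 1 the log2 fold change was 2.08 (adjusted p = 0.00657).

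The other MYB51 copies were at the detection limit in both groups. Bra025666 had 2 reads in wild type 4, 2 in msm 1 and 3 in msm 3, and none in the other 3 libraries. Bra031035 had 2 reads in msm 1 and none elsewhere. A count of 0 allows up to 3 reads (the upper limit of a one-sided 95% interval, unlike the intervals with limits on both sides given for Bra016553), which is 0.119 to 0.125 RPKM for Bra031035 and 0.112 to 0.117 RPKM for Bra025666, counting error only. No fold change is given for these copies.

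**Figure D3:**
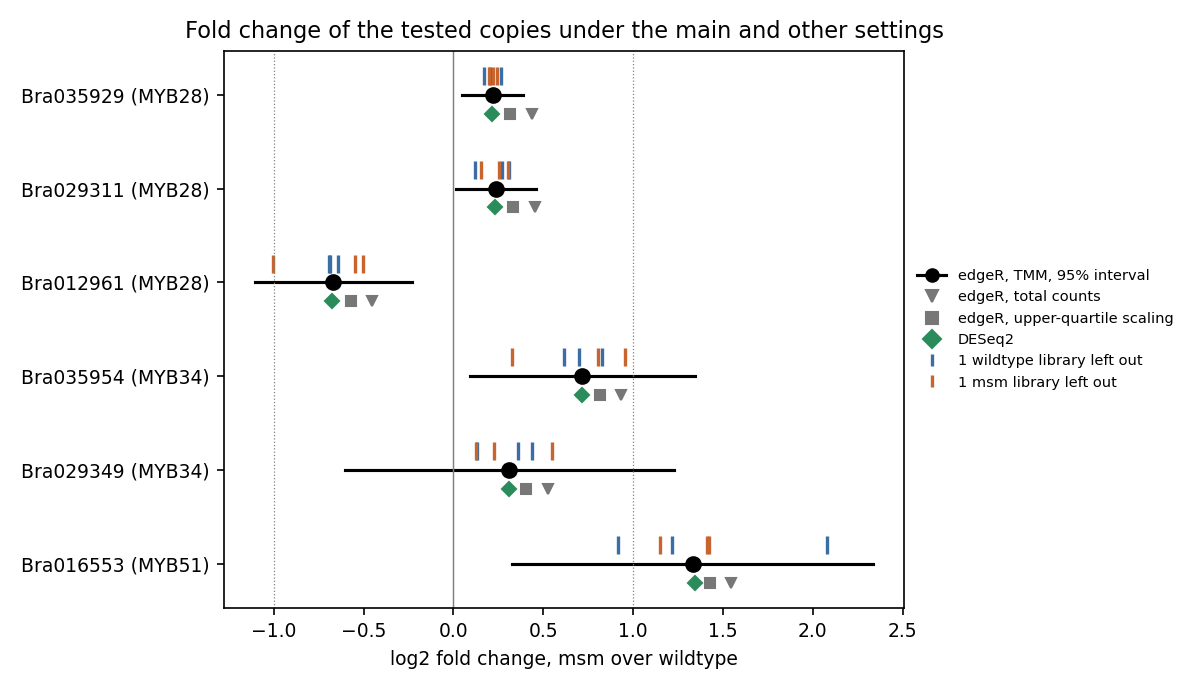
Log2 fold change of msm over wild type for the 6 tested copies: the black point and line are the edgeR estimate with TMM scaling and its 95% interval, grey and green symbols are other scalings and DESeq2, and vertical ticks are fits with 1 library left out. All points of Bra012961 lie below 0 and all points of the other 5 copies lie above it, while the ticks of Bra035954 run from 0.33 to 0.95; dotted lines mark 2-fold.

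In none of the 15 alternative fits with a fold change for each copy did any of the 6 tested copies change sign. Calls were less stable than signs. The fit with the library number as a block is among the 15, and its fold changes rest on libraries 1 and 2 of each group only. Bra012961, Bra035929 and Bra016553 each passed the threshold in 10 of the 15, Bra035954 in 8, Bra029311 in 6 and Bra029349 in none. Both tested copies of MYB34 and the tested copy of MYB51 had positive fitted changes under every scaling.

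By family, the summed MYB28 level was 1.30 times higher in msm under total counts and 1.12 times higher on the TMM scale, where the groups overlapped. The MYB34 sum was 1.78 and 1.53 times higher, and the MYB51 sum 3.03 and 2.60 times higher, without overlap on either scale. Of all single genes tested, 29.3% were also higher without overlap on the TMM scale. Under total counts 45.7% of tested genes were higher at an adjusted p below 0.05 in edgeR, which is another measure than a lack of overlap. The share of genes without overlap was not counted on that scale. Bra016553 supplied on average 90.6% of the MYB51 RPKM in wild type and 89.4% in msm, so the MYB51 sum mostly repeats that copy. The family sums are given without a test. The direction was the same under all 4 scalings (TMM, relative log expression, upper quartile and total counts). In the MYB34 sum msm 1 stood above the other msm libraries, with 4.40 RPKM against 2.39 and 2.94.

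The ratio of the MYB28 sum to the summed indolic regulators MYB34 and MYB51 was 12.1, 15.6 and 15.9 in wild type and 8.07, 12.6 and 9.56 in msm. The means were 14.5 ± 2.10 and 10.1 ± 2.31 (n = 3 each, SD). The groups overlapped, since msm 2 lay above wild type 1.

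In RPKM the order of levels was nearly the same in both groups. In wild type it ran from Bra035929 through Bra029311, Bra012961 and Bra035954 to Bra029349. Each of these stood clear of the next, by factors of 1.62 to 3.47 between neighbours. From Bra029349 downwards neighbours overlapped: Bra013000, Bra016553, Bra029350, Bra025666 and Bra031035 followed. In msm the first 4 places were the same. There Bra012961 (2.18 ± 0.799 RPKM) and Bra035954 (1.96 ± 0.846 RPKM; n = 3 each, SD) overlapped, whereas in wild type Bra012961 was 2.93 times the level of Bra035954. Bra016553 held rank 5 in msm and rank 7 in wild type. In msm it stood clear of Bra035954 above it and overlapped with Bra029349 below it, and in wild type it overlapped with both neighbours.

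The covered part of each coding sequence, a column the authors deposited beside the reads, differed between the MYB28 copies. Bra035929 (1074 bases) was covered to 99.2% to 99.7% in all 6 libraries. Bra029311 (1119 bases) was covered to only 91.2% to 93.7% with 246 to 452 reads. Taken as a true percentage, that would leave 70 to 98 of its bases unread in each library, against 3 to 9 bases of Bra035929. Bra012961 (1065 bases) reached 94.2% to 97.8% with only 44 to 84 reads. Over the 15268 genes with at least 200 reads in every library the median covered part was 99.5%, and 11.7% of these genes were covered less than Bra029311. Coverage of Bra029311 was alike in the groups: wild type gave 91.2% to 93.7% and msm 93.4% to 93.7%.

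For the weakly read copies the covered part followed the number of reads, with exceptions by library. Bra016553 was covered to 93.7% by 16 reads in msm 1 and to 52.4% by 16 reads in msm 2. Bra035954 was covered to 63.3% by 30 reads in msm 2, less than the 80.0% by 23 reads in wild type 1. How the reads lie along a gene is not given in the tables.

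**Figure D4:**
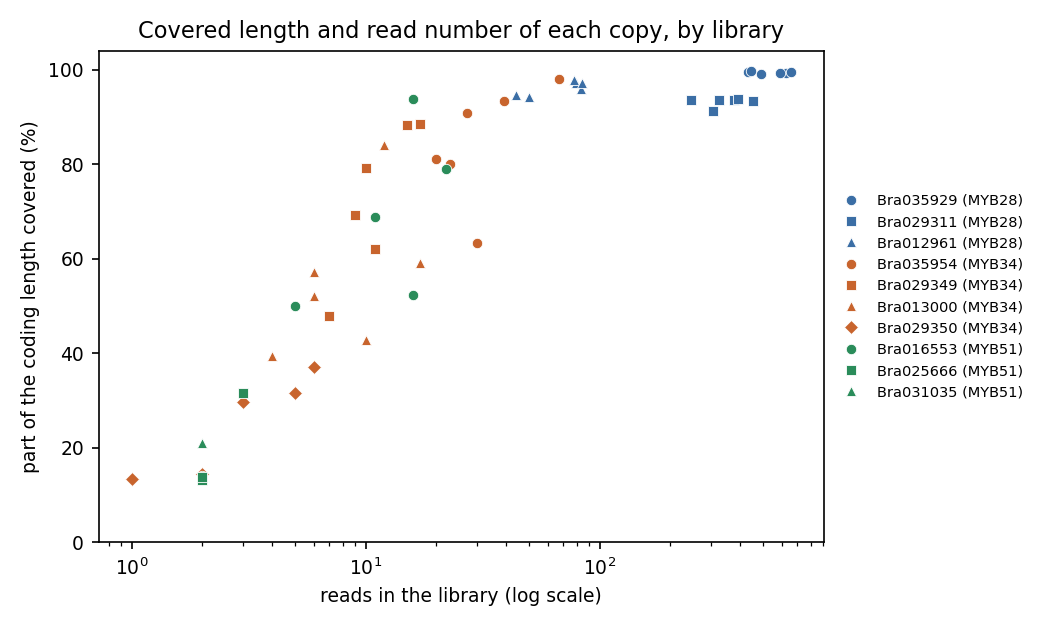
Part of the coding length covered (percent) against the number of reads (log scale) for each copy in each library with a read, with colours for families. Bra029311 stays at 91.2% to 93.7% with over 200 reads, below Bra035929, while copies with 10 reads or fewer are covered to 79.1% or less.

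Each MYB28 copy has an identifier close to that of a MYB34 copy: Bra012961 and Bra013000, Bra035929 and Bra035954, and Bra029311 and Bra029349. The numbers are not positions, and none are used here. Of the 99 identifiers that lie between these pairs, 75 were tested. Of the 75, 23 (30.7%) were higher and 27 (36%) lower in msm at an adjusted p below 0.05 in edgeR, against 26.8% and 30.1% of all tested genes. With at least 2-fold required, 3 (4%) were higher and 7 (9.33%) lower, against 4.64% and 12.5%. The stretches differed: between Bra029311 and Bra029349, 4 of 22 tested genes (18.2%) were higher and 11 (50%) lower at that adjusted p, and between Bra012961 and Bra013000, 13 of 34 (38.2%) were higher and 9 (26.5%) lower. Between Bra035929 and Bra035954, 6 of 19 (31.6%) were higher and 7 (36.8%) lower. These shares rest on few genes, and their differences were not tested.

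The gene most like the leading copy of each family was sought by Pearson correlation of log2 TMM-scaled read numbers over the 6 libraries, among genes within 1 log2 unit of its mean. With so few libraries many genes come close: 494 of 9360 candidates passed 0.9 for Bra035929. Bra015069 was most like Bra035929, with r = 0.998, and had 4.11 ± 0.599 RPKM in wild type and 6.57 ± 0.305 in msm (n = 3 each, SD). Bra007149 was most like Bra035954, with r = 0.990, and had 1.70 ± 0.151 and 2.95 ± 1.02 RPKM. Bra028600 was most like Bra016553, with r = 0.992, and had 0.721 ± 0.283 and 1.43 ± 0.241 RPKM (n = 3 each, SD). With TMM scaling the fitted log2 fold change was 0.46 for Bra015069 (adjusted p = 0.000717 in edgeR). It was 0.57 for Bra007149 (adjusted p = 0.208) and 0.76 for Bra028600 (adjusted p = 0.131), and neither of these passed the threshold. The files name none of the most alike genes. Other genes of the glucosinolate pathway were not analysed here, because no measured identifier could be paired with their names.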

How the data were processed

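Per the file headers, the authors deposited for each library the count of uniquely assigned reads per gene, its coding length, how much of it was covered, and RPKM. Counts were not normalized and summed to the total in each header. The RPKM values deposited by the authors followed from counts, length and that total. The coverage column deposited by the authors is a percentage, treated as a score because 14 values pass 100. DESeq appears in the submitters' processing notes with no role. For the aligner, genome build, annotation and use of strand, nothing is given in the sources used here. Genes with no row for a library were set to 0 reads there.

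Libraries were grouped by their titles. Counts of all genes were tested with edgeR 4.0.16 (R 4.3.3), with TMM scaling, the default filter and robust quasi-likelihood fits, and p-values were adjusted by Benjamini-Hochberg over all tested genes. The standard error is the log2 fold change divided by the square root of F. Copy ratios were compared by exact permutation tests (SciPy 1.17.1). Alternatives were DESeq2 1.42.0, limma 3.58.1 on log2(RPKM + 1) and log2(RPKM + 0.1), other scalings and filters, a test against 2-fold, each library left out and the library number as a block. The named genes are the 10 members and, for the leading copy of each family, the gene most like it. Members and lists were chosen with earlier results of these data known. Intervals and limits for 0 reads cover counting error only.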

Additional observations from a re-analysis of the deposited data

How the results depend on the processing

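The number of copies passing an adjusted p of 0.05, 3 higher and 1 lower in edgeR with TMM, was recomputed under the alternatives. DESeq2 called 0 higher, where 19.2% of the 35421 genes with a read were higher. Total counts, upper-quartile scaling and both limma settings called 4 higher, where 45.7%, 35%, 45.1% and 44.3% of all tested genes were higher. Total counts and both limma settings called 0 lower, where 19.9%, 19.8% and 19.7% of all tested genes were lower. With 1 library left out, 0 to 3 copies were higher and 0 to 1 lower, against 22.8% to 26.9% and 27.5% to 30.8% of all tested genes. With at least 2-fold required (main fit: 1 higher, 0 lower), DESeq2, limma with 1 RPKM added and the edgeR test against 2-fold gave 0 higher. That test called 2.56% of all tested genes higher. With 1 library left out the range was 0 to 1 each way. The replicate block (library number as a term) gave 0 both ways at either threshold. Shares at 2-fold were not counted for these other fits. In the block fit 19.5% of all tested genes were higher and 24.2% lower at an adjusted p below 0.05. Only the numbers 1 and 2 are shared by the groups. Wild type 4 and msm 3 thus had block terms of their own, and fold changes in that fit rested on libraries 1 and 2 of each group. Whether the smaller number of libraries accounts for the lost calls was not tested. Deviations of same-numbered libraries correlated at -0.0473 (wild type 1 and msm 1) and 0.0368 (wild type 2 and msm 2). Those of unlike-numbered libraries correlated at 0.0400 (wild type 1 and msm 2) and -0.0470 (wild type 2 and msm 1). Whether same-numbered libraries shared a batch was not tested.

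Of 96 recomputed differences between copies 16 turned in sign. With 1 library left out the log2 difference in response ran from -0.112 to 0.0592 for Bra035929 against Bra029311, from -0.193 to 0.708 for Bra035954 against Bra013000, from -0.216 to 0.655 for Bra035954 against Bra029350, from -0.737 to 0.350 for Bra029349 against Bra013000, from -0.574 to 0.212 for Bra029349 against Bra029350, from -0.924 to 0.848 for Bra013000 against Bra029350 and from -0.774 to 0.936 for Bra025666 against Bra031035. With 1 RPKM added Bra029349 against Bra029350 gave 0.0751. Shares of raw reads lay within 1 SD of shares of RPKM for each copy with a read in the group. With 1 library left out, the mean share of Bra025666 in wild type went from 9.36% to 0 (without wild type 4) and that of Bra031035 in msm from 3.46% to 0 (without msm 1). The cause of these differences was not tested. Counts of at most 17 reads per library limit the precision for Bra029349, Bra013000, Bra029350, Bra025666 and Bra031035. For Bra035954 the msm libraries differed by more than counting error, with 67 reads (exact Poisson 95% interval 51.9 to 85.1) in msm 1 and 30 (20.2 to 42.8) in msm 2.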
